A study of Mus musculus with 16 samples.

Results

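The genes described here are 37 enzymes and enzyme regulators of glycolysis and the tricarboxylic acid (TCA) cycle, taken by their symbols from a count table of 55573 mouse gene IDs. They were sorted by role into glycolysis (17 genes), the entry of pyruvate into mitochondria's oxidative pathways (9 genes) and the TCA cycle (11 genes). All 37 symbols were found and all 37 genes passed the filter on low counts in every comparison. Aldoa matched a second row with 378 counts over all libraries, which was left out.

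RNA was sequenced from cerebral cortex of untreated mice at about postnatal day 180, in 4 groups of 4 libraries. Aifm1-KI mice carry a knock-in allele of Aifm1 with codon 200, an arginine, deleted, and Aifm1-WT are their wild-type littermates. Hq-mut mice carry the Harlequin allele of Aifm1, and Hq-WT are their wild-type littermates. By the labels all samples are of strain C57BL/6, while the Harlequin stock is named B6CBACa Aw-J/A-Aifm1Hq/J. Since they do not say whether each library came from its own mouse, p-values cover the spread between libraries, which may be technical.

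The product of Aifm1, apoptosis-inducing factor, sits in mitochondria, where it binds FAD and helps the respiratory chain to assemble. Glycolysis splits glucose into pyruvate in the cytosol, with a small yield of ATP and NADH. Pyruvate is reduced to lactate by lactate dehydrogenase, converted to acetyl-CoA by the pyruvate dehydrogenase complex or carboxylated to oxaloacetate. The TCA cycle oxidizes acetyl-CoA and passes electrons to the respiratory chain, and pyruvate dehydrogenase kinases switch off the step that feeds it. In the brain, neurons and astrocytes express different isozymes of several of these steps.

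The shallowest library, Hq-WT 3, held 10671580 counts and the deepest, Aifm1-KI 2, 32551594. Aifm1 itself was at 3.77, 2.22, 3.28 and 4.01 CPM (counts relative to the library's total, scaled with TMM factors) in Hq-mut 1 to 4 and at 23.1 to 25.8 CPM in Hq-WT, a log2 fold change of -2.89 (SE 0.17, adjusted p = 0.00101 by edgeR). In Aifm1-KI its log2 fold change was 0.08 (SE 0.07, adjusted p = 0.679 by edgeR), and the deleted codon is not visible in such counts. All 10 excitatory neuron markers, including Slc17a7, were detected in every library. Their mean log2 CPM was 6.50 in Aifm1-KI 2, against 7.13 to 7.63 in the others, and their sum 4555 CPM, against 5201 to 6425. Some libraries stood apart in the markers of tissue next to the cortex. The 7 choroid plexus markers summed to 2812 CPM in Aifm1-KI 2, 5485 in Hq-WT 2, 379 in Hq-mut 2, 367 in Aifm1-WT 4 and 5.86 to 126 in the other libraries. Their mean log2 CPM was 5.17 in Aifm1-KI 2, 5.35 in Hq-WT 2 and 3.08 in Aifm1-WT 4. By this measure Hq-mut 2, at 1.33, did not stand apart, since Hq-WT 3 was at 1.84 and Hq-mut 3 at 1.94. The 10 striatal markers summed to 641 CPM in Aifm1-KI 2, 591 in Aifm1-KI 4 and 856 in Hq-mut 3, against 227 to 367 in the others. The 10 astrocyte markers summed to 3405 and 3557 CPM in Hq-WT 2 and Hq-mut 2, against 4891 to 7041 in the others. The 8 oligodendrocyte markers summed to 1858 and 2725 CPM in Aifm1-KI 2 and 4, against 3512 to 4786 in the rest of that line, and ran from 1940 (Hq-WT 2) to 5927 (Hq-WT 3) in the Hq line. A list of 7 liver markers had a mean log2 CPM of 4.50 in Aifm1-WT 1 and 4.68 in Aifm1-WT 2. In the other libraries it ran from -1.52 to 1.81. The part of these liver markers in the values below was not tested. Values without Aifm1-KI 2 and 4, without Hq pair 2 or without Hq-WT 2 are given beside some of the results that these libraries move.

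How well a gene of this group can be counted depends on its sequence, because glycolytic genes have left many processed pseudogenes in the mouse genome. For each member, every 51-base stretch (the length of a read) of its longest coding transcript was looked up in all other annotated transcripts. For 20 members no stretch occurred in another gene, and for 17 at least 1 did. More than 10% of the stretches were shared in 11 members, of which 9 belong to glycolysis, 1 (Pdhb) to pyruvate entry and 1 (Suclg2) to the TCA cycle. The share was 82.4% in Gapdh, 71.9% in Eno1, 67.9% in Pgk1 and 41.4% in Pgam1. The stretch below, bases 655 to 705 of the Gapdh transcript (chromosome 6), is shown because the same 51 letters stand in 79 annotated pseudogenes, so a read of it has no unique place.
Gapdh copied stretch: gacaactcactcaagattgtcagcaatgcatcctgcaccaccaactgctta

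Gapdh, the enzyme that makes 1,3-bisphosphoglycerate, shared a stretch with 211 annotated pseudogenes, of which 207 had at least 1 count. Its own row (ENSMUSG00000057666, GRCm38 chromosome 6, 125161715 to 125166467, minus strand) had a mean of 9.19 CPM over the 16 libraries, while the pseudogenes summed to a mean of 51.3 CPM. Per kilobase of annotated exon, Gapdh stood at 2.22 CPM, and per kilobase of stretches found in no other gene at 38.1. The corresponding levels were 12.4 and 120 for Eno1 and 3.02 and 11.9 for Pgk1. In the shared stretches, reads of a gene and of its copies cannot be told apart. Hk1, Pfkp, Pdha1, Gpi1 and Pkm each overlap another annotated gene, and without a stated strand setting reads in the overlap cannot be told apart.

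**Figure D1:**
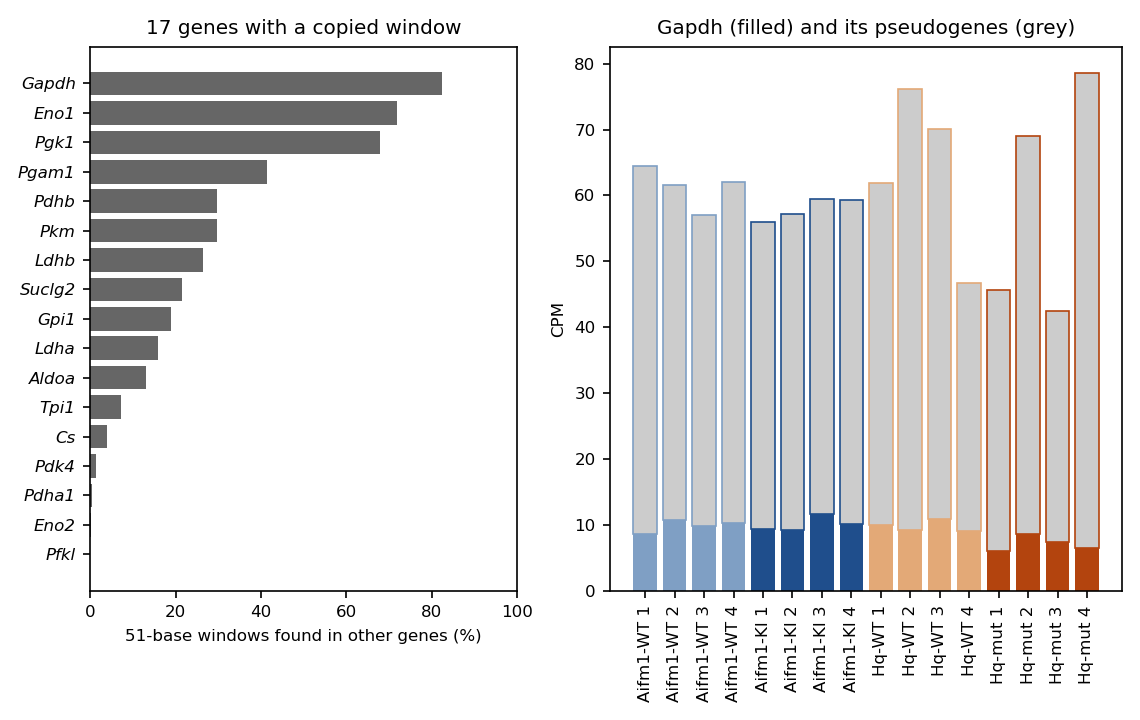
Left, the percent of 51-base stretches of each member's longest coding transcript that also occur in another annotated gene, for the 17 members with any. Right, CPM of Gapdh (filled) and the summed CPM of pseudogenes that share a stretch with it (grey) in each library: the pseudogenes make up most of every bar, and within the Hq line the 4 Hq-mut libraries have the shortest filled parts, 6.04 to 8.58 CPM.

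Promoters of the lactate dehydrogenase genes are shown because these isozymes catalyse the same step and the promoters printed differ in a motif linked to glycolysis. The sequences are RefSeq's on GRCm38.p6, from 250 bases before to 50 after the start, printed 5′ to 3′ on the gene's strand. Capitals mark ACGTG, a form of the core letters bound by hypoxia-inducible factors, or its reverse complement, CACGT. The form GCGTG was not searched for, and it stands unmarked in both promoters printed, so matches here count ACGTG and CACGT only. Where the motif and its complement overlap in a palindrome, both were counted.
Ldha (chr7:46845554-46845853, plus strand): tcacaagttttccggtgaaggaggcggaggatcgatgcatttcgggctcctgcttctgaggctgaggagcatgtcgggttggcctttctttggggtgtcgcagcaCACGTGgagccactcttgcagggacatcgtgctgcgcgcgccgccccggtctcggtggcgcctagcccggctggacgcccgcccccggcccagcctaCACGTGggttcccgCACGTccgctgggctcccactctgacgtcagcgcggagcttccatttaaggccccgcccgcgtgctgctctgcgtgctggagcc
Ldhb (chr6:142507908-142508207, minus strand): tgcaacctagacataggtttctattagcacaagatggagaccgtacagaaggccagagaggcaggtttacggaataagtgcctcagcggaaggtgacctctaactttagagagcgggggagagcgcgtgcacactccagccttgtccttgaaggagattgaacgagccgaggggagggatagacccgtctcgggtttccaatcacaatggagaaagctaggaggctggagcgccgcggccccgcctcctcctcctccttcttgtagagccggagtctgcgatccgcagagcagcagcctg

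The first promoter listed for Ldha held 5 matches, and that of Ldhb 0. A second promoter of Ldha, chr7:46846832-46847131, not printed, also held 0. Over the 36 members with an entry (Idh3a has none), 23 of 55 promoters, or 41.8%, held the motif, against 19.6% of 32851 promoters of the same length in the whole table. By role, it stood in 42.9% of glycolysis promoters, 33.3% of pyruvate entry promoters and 46.7% of TCA cycle promoters. These percents count each promoter of a gene separately. In the TCA cycle only Ogdh, in all 6 of its promoters, and Idh3g held the motif, so that percent rests mainly on 1 gene and does not rank the roles by gene. Counted by gene, 16 of the 36 members held it in at least 1 promoter. No share by gene was computed over the whole table, and the 19.6% counts promoters, so the 16 cannot be set against it. A match of 5 letters describes the window and does not show that a factor binds there.

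Levels per kilobase of exon spanned a wide range. Aldoa, the muscle-type aldolase, had the highest at 319 CPM per kilobase, followed by the brain aldolase Aldoc at 189 (a marker of astrocytes), the neuronal enolase Eno2 at 178, Ldhb at 119 and the phosphofructokinase Pfkm at 112. This order depends on the length used. Per kilobase of stretches found in no other gene, Aldoa stood at 711 CPM, Eno2 at 306, Pkm at 265, Aldoc at 225 and Ldhb at 202. Tpi1 stood at 191 by that measure, above Pfkm at 132. At the low end stood the inducible hexokinase Hk2 at 0.70, the GTP-forming succinyl-CoA ligase subunit Suclg2 at 1.74 and Gapdh at 2.22. The place of Gapdh here does not show that it is scarce, since 82.4% of its stretches are shared with other genes. Per kilobase of stretches found in no other gene it stood at 38.1 CPM, against 0.76 for Hk2 and 3.10 for Suclg2. Among TCA cycle genes, Mdh2, the mitochondrial malate dehydrogenase, was highest at 65.4 and Idh3b, a subunit of NAD-dependent isocitrate dehydrogenase, next at 56.5. The Pdk genes, which encode the kinases that inactivate pyruvate dehydrogenase, ran from 28.6 for Pdk2 through 10.4 for Pdk1 and 9.09 for Pdk3 to 4.24 for Pdk4.

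**Figure D2:**
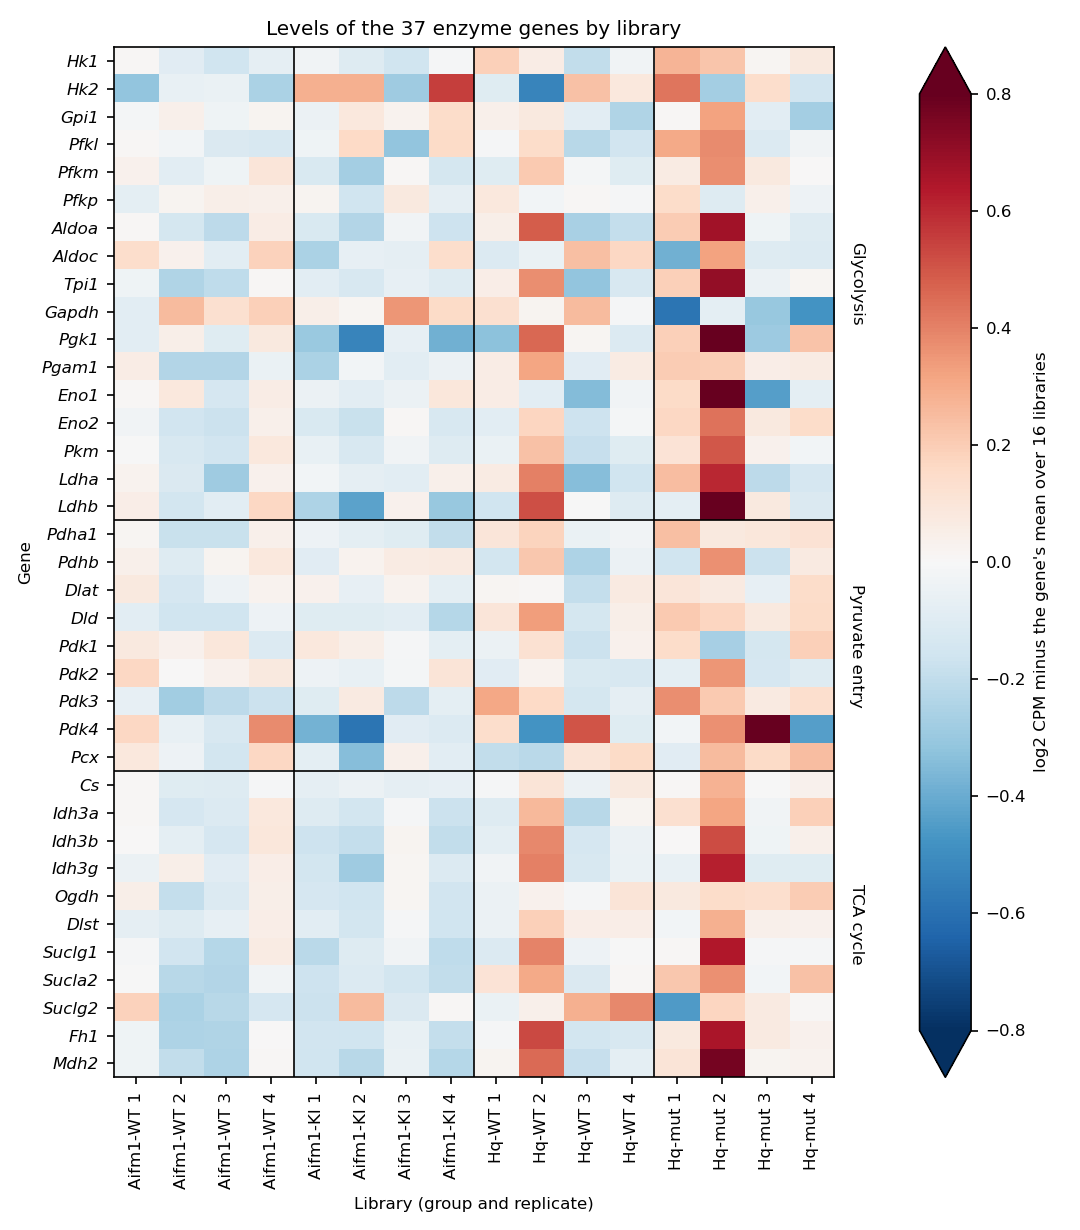
Colour gives log2 CPM minus the gene's mean over 16 libraries, with genes in rows by role and libraries in columns by group. Most rows are darkest red in Hq-mut 2, which had the highest CPM of the 8 Hq libraries for 24 of 37 genes.

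Aifm1-KI was compared with Aifm1-WT to ask whether these enzymes differ in cortex that carries the deletion allele. None of the 37 passed edgeR's test. Nor did any other gene: 0 of 18383, or 0%, were called, with a lowest adjusted p of 0.368, while 2094 (11.4%) had an unadjusted p under 0.05. DESeq2 called 82 genes, of which 0 were members. Of the members, 3 had an unadjusted p under 0.05, namely Hk2, Pgk1 and Pdk4. For 34 of the 37 the 95% interval of the log2 fold change lay within 0.5 of zero on both sides, and those 3 were the exceptions. Standard errors ran from 0.047 to 0.17.

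Glycolysis genes in Aifm1-KI were evenly split, with 8 above and 9 below zero and a median log2 fold change of -0.013, against 0.0055 over all genes tested. Hk2, a hexokinase that is scarce in adult brain next to Hk1, was at 4.96, 4.97, 3.35 and 5.98 CPM in Aifm1-KI 1 to 4. In Aifm1-WT 1 to 4 it was at 3.28, 3.91, 3.93 and 3.43 CPM. All Aifm1-KI libraries but the third lay above the wild types, for a log2 fold change of 0.43 (SE 0.17, adjusted p = 0.417 by edgeR). Without Aifm1-KI 2 and 4, which had high striatal markers, the value was 0.23.

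Pgk1, the first ATP-forming enzyme of glycolysis, was at 5.28, 4.50, 6.20 and 4.97 CPM in Aifm1-KI and at 6.13, 6.70, 6.06 and 6.85 CPM in Aifm1-WT. The groups overlap through Aifm1-KI 3, and the log2 fold change was -0.30 (SE 0.12, adjusted p = 0.423 by edgeR), or -0.17 without Aifm1-KI 2 and 4. Gapdh stood at 9.35, 9.14, 11.6 and 10.1 CPM in Aifm1-KI against 8.55, 10.8, 9.89 and 10.3 in Aifm1-WT. These ranges cover each other, with a log2 fold change of 0.03 (SE 0.11, adjusted p = 0.950 by edgeR).

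Ldha, the lactate dehydrogenase subunit favoured in tissues that make lactate, was at 145, 140, 139 and 151 CPM in Aifm1-KI and at 150, 136, 121 and 150 CPM in Aifm1-WT. Its log2 fold change was 0.06 (SE 0.07, adjusted p = 0.771 by edgeR). Ldhb, the subunit of tissues that burn lactate, was at 154, 136, 186 and 148 CPM in Aifm1-KI and at 189, 165, 172 and 204 CPM in Aifm1-WT. Here 3 of the 4 Aifm1-KI libraries lay below all wild types, and the log2 fold change was -0.21 (SE 0.10, adjusted p = 0.462 by edgeR). Without Aifm1-KI 2 and 4 it was -0.09.

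Among pyruvate entry genes in Aifm1-KI, 3 lay above zero and 6 below, with a median of -0.0021. The subunits of pyruvate dehydrogenase (Pdha1, Pdhb, Dlat and Dld) had log2 fold changes between -0.02 and 0.02. Pdk4, the kinase induced by fasting and fatty acids, was at 11.04, 9.58, 13.5 and 13.3 CPM in Aifm1-KI and at 16.1, 13.8, 13.2 and 18.6 CPM in Aifm1-WT. Only Aifm1-WT 3 lay within the range of the mutants, and the log2 fold change was -0.38 (SE 0.14, adjusted p = 0.401 by edgeR), or -0.33 without Aifm1-KI 2 and 4.

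The other kinases differed less. Pdk3 was at 21.5, 24.3, 19.9 and 21.9 CPM in Aifm1-KI against 22.1, 19.01, 19.9 and 20.5 in Aifm1-WT, for a log2 fold change of 0.12 (SE 0.08, adjusted p = 0.537 by edgeR), which was 0.04 without Aifm1-KI 2 and 4. Pdk2, the most abundant of the kinases, was at 87.7, 86.3, 89.2 and 96.6 CPM against 101, 90.2, 92.4 and 95.1 CPM, a log2 fold change of -0.06 (SE 0.06, adjusted p = 0.688 by edgeR). For Pdk1, a kinase known as a target of hypoxia-inducible factor, the values were 84.9, 83.0, 79.7 and 75.9 CPM against 84.6, 82.3, 85.6 and 74.3, a log2 fold change of -0.0010 (SE 0.06, adjusted p = 0.997 by edgeR). The groups overlap for each of these kinases.

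TCA cycle genes in Aifm1-KI lay close to zero, 10 of 11 below it, with a median log2 fold change of -0.039 and a range from -0.11 to 0.12. Idh3g, a regulatory subunit of NAD-dependent isocitrate dehydrogenase, was at 86.9, 79.1, 97.5 and 89.1 CPM in Aifm1-KI against 93.4, 99.4, 90.6 and 100.1 in Aifm1-WT, with a log2 fold change of -0.11 (SE 0.07, adjusted p = 0.556 by edgeR). Its partner Idh3b was at 171, 168, 194 and 167 CPM against 192, 181, 174 and 204 CPM, a log2 fold change of -0.09 (SE 0.07, adjusted p = 0.629 by edgeR). In both genes the groups overlap, and without Aifm1-KI 2 and 4 the values were -0.05 for Idh3g and -0.03 for Idh3b. Over all 37 members 25 lay below zero, against 48.4% of all genes tested, and without Aifm1-KI 2 and 4 the number was 20, of which 7 in the TCA cycle. Aifm1-WT 4 had the highest CPM of the 8 libraries of this line for 20 of 37 members, or 54.1%, against 14.1% of all genes. Without it 18 members lay below zero and 19 above, with a median of -0.0032 in the TCA cycle and 0.019 in glycolysis. No member had mutant libraries wholly apart from the wild types, which 4.87% of all genes tested had in either direction. In bulk tissue, fewer cells of a type and less RNA per cell cannot be told apart, and the part of the striatal, choroid plexus and oligodendrocyte levels given above in these values was not tested.

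**Figure D3:**
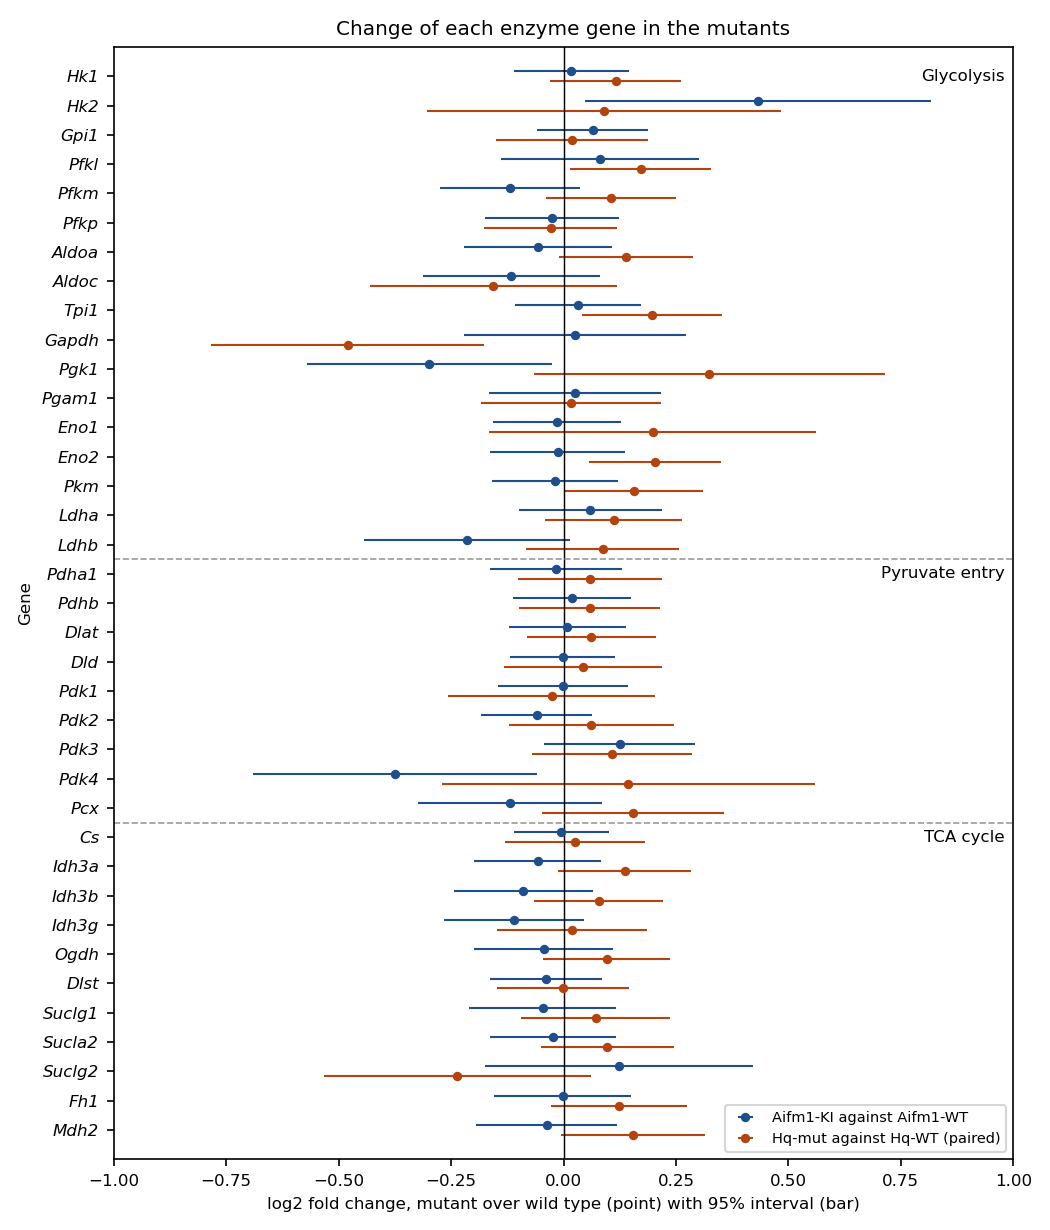
Points are log2 fold changes of mutant over wild type with 95% intervals, blue for Aifm1-KI and orange for Hq-mut fitted with replicate pairs, 4 libraries a group. Intervals of Hk2, Pgk1 and Pdk4 in blue and of Gapdh, Tpi1, Eno2, Pfkl and Pkm in orange miss zero before adjustment, and no member has an adjusted p under 0.05.

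Hq-mut and Hq-WT libraries of the same number deviate together from their group means, so the comparison of this line was fitted with replicate pairs. It asks whether the enzymes differ where Aifm1 transcripts are scarce. Of the 37 members 0 were called by edgeR, against 3 of 17969 genes (0.0167%). An unadjusted p under 0.05 was found for 5 members, all in glycolysis, and for 1433 genes or 7.97% of those tested. DESeq2 called 33 genes and 0 members. For 32 of the 37 members the 95% interval lay within 0.5 log2 of zero on both sides; the others were Gapdh, Pgk1, Eno1, Pdk4 and Suclg2.

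Most members nonetheless lay slightly above zero in Hq-mut, 31 of 37, against 51.6% of all genes tested. In 17 members the mutant was higher in all 4 pairs, as in 11.9% of all genes. The median log2 fold change was 0.11 in glycolysis (14 of 17 above zero), 0.06 in pyruvate entry (8 of 9) and 0.08 in the TCA cycle (9 of 11), beside 0.0060 over all genes. By pair, the median log2 ratio over the 37 members was 0.09, 0.18, 0.10 and 0.08, and 30, 31, 28 and 24 members were higher. Pair 2 had the largest median. Its astrocyte markers had low sums, 3405 CPM in the wild type and 3557 in the mutant. By mean log2 CPM of these markers, Hq-mut 2 was at 7.13, above Hq-mut 1 at 6.93, and Hq-WT 2 was at 6.88. In this pair choroid plexus markers stood at 5485 CPM in the wild type, and oligodendrocyte markers at 4670 CPM in the mutant against 1940 in the wild type. The part of these markers in the ratios was not tested. Without pair 2, 27 of 37 lay above zero, with medians of 0.10, 0.07 and 0.07 for the roles, and 10 members had an unadjusted p under 0.05 with 0 called. Of these 10, Aldoc, Gapdh and Suclg2 lay below zero, at -0.32, -0.60 and -0.35, and the others above it. With all pairs Aldoc, Gapdh and Suclg2 were at -0.16, -0.48 and -0.24. Aldoc had the lowest adjusted p of the members without pair 2 (adjusted p = 0.123 by edgeR).

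**Figure D4:**
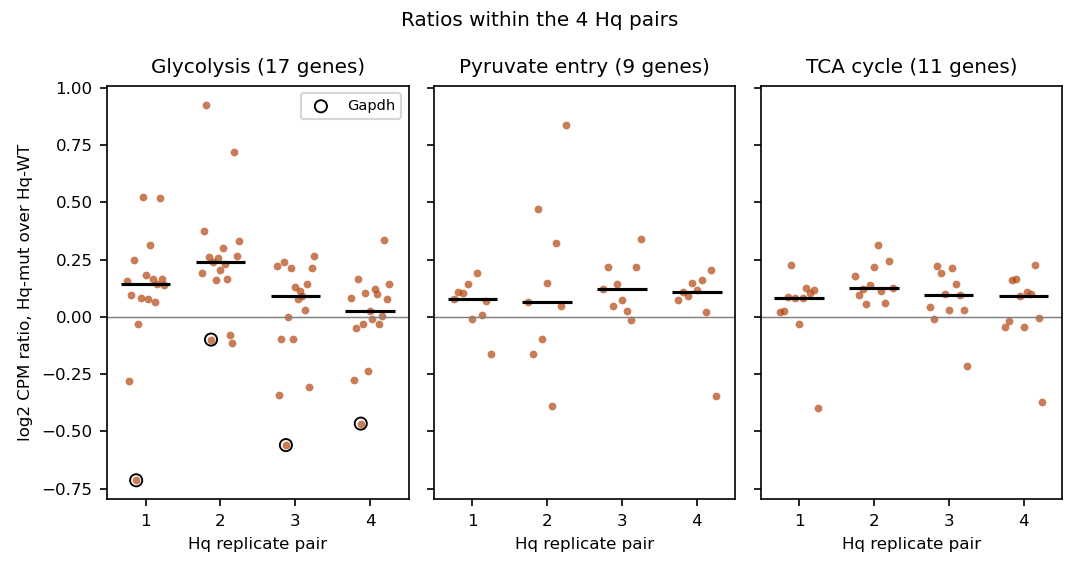
Each point is the log2 ratio of CPM, Hq-mut over Hq-WT, of one gene within one replicate pair, and black lines are medians over the genes of a role. Medians lie above zero in all pairs, while Gapdh, circled, lies below it at -0.71, -0.10, -0.56 and -0.47.

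Gapdh lay below zero, unlike most glycolysis genes. It stood at 6.04, 8.58, 7.33 and 6.50 CPM in Hq-mut 1 to 4, and at 9.90, 9.19, 10.8 and 8.98 CPM in Hq-WT 1 to 4. All 4 mutant libraries lay below all 4 wild types, which held for no other member and for 0.723% of all genes tested in this direction (1.58% in either direction). It was also the only member lower in all pairs, as 6.90% of genes were. The log2 fold change was -0.48 (SE 0.13, 95% interval -0.78 to -0.18, adjusted p = 0.528 by edgeR). The pseudogenes that share its sequence summed to 39.6, 60.4, 35.1 and 72.1 CPM in Hq-mut and to 52.0, 66.9, 59.3 and 37.8 in Hq-WT. With their counts added to Gapdh the log2 fold change was -0.16 (SE 0.20, adjusted p = 0.875 by edgeR). That value mostly follows the pseudogene rows, whose sums exceed those of Gapdh in every library. Whether their reads came from Gapdh was not tested.

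Eno2, the neuronal enolase, had the next smallest p of the glycolysis genes. It was at 932, 1126, 877 and 922 CPM in Hq-mut and at 785, 938, 744 and 822 CPM in Hq-WT. Each mutant library exceeded its own pair, while Hq-WT 2 lay above 3 of the mutants, and the log2 fold change was 0.20 (SE 0.06, adjusted p = 0.561 by edgeR). Tpi1, the triose isomerase, had a log2 fold change of 0.20, Pfkl, the liver-type phosphofructokinase, 0.17, and Pkm, pyruvate kinase, 0.16.

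The lactate dehydrogenase genes were highest in pair 2. Ldha was at 175, 224, 127 and 134 CPM in Hq-mut and at 154, 195, 116 and 132 CPM in Hq-WT, a log2 fold change of 0.11 (SE 0.07, adjusted p = 0.709 by edgeR). Ldhb was at 172, 321, 192 and 169 CPM in Hq-mut and at 163, 260, 182 and 170 CPM in Hq-WT, a log2 fold change of 0.09 (SE 0.07, adjusted p = 0.796 by edgeR). In both genes the libraries of pair 2 were the highest of their groups and the groups overlapped. Without pair 2 the log2 fold changes were 0.10 for Ldha and 0.03 for Ldhb. Eno1, the other enolase, was at 117 CPM in Hq-mut 2 against 48.2 to 72.7 in the other 7 libraries, and Pgk1 at 14.7 CPM there against 5.17 to 8.94. Their log2 fold changes of 0.20 and 0.32 became -0.03 and 0.19 without pair 2.

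In pyruvate entry, Pcx, which makes oxaloacetate from pyruvate and in the brain is mainly astrocytic, was at 59.2, 75.2, 70.3 and 74.8 CPM in Hq-mut. In Hq-WT it was at 55.1, 54.3, 67.9 and 70.2 CPM. It was higher in every pair although the groups overlap, with a log2 fold change of 0.16 (SE 0.09, adjusted p = 0.696 by edgeR), or 0.06 without pair 2. Pdk3 was at 29.9, 26.7, 24.3 and 25.3 CPM against 28.6, 25.8, 20.9 and 21.9 CPM, likewise higher in every pair, a log2 fold change of 0.11 (SE 0.08, adjusted p = 0.756 by edgeR).

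The remaining kinases varied without a common direction. Pdk4 was the most scattered, at 14.1, 18.5, 25.7 and 10.6 CPM in Hq-mut and 15.8, 10.3, 20.3 and 13.4 in Hq-WT, a log2 fold change of 0.14 (SE 0.18, adjusted p = 0.876 by edgeR), which was -0.07 without pair 2. Its highest value fell in Hq-mut 3, the library with the most striatal markers; their part in it was not tested. Pdk1 was at 88.7, 66.7, 72.7 and 91.8 CPM against 77.6, 87.3, 71.4 and 82.2, a log2 fold change of -0.03 (SE 0.10, adjusted p = 0.966 by edgeR), which was 0.11 without pair 2. Pdk2 was at 85.1, 115, 82.1 and 83.7 CPM against 84.7, 91.8, 82.8 and 82.4, a log2 fold change of 0.06 (SE 0.08, adjusted p = 0.878 by edgeR), and without pair 2 it was -0.01.

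Of the TCA cycle genes, Mdh2, which closes the cycle by making oxaloacetate from malate, was at 246, 389, 232 and 234 CPM in Hq-mut and at 232, 313, 201 and 217 CPM in Hq-WT. It was higher in all 4 pairs, with a log2 fold change of 0.15 (SE 0.07, adjusted p = 0.641 by edgeR). Idh3a, the catalytic subunit of isocitrate dehydrogenase, was at 224, 256, 201 and 233 CPM against 191, 246, 176 and 208 CPM. It too was higher in all pairs, with a log2 fold change of 0.14 (SE 0.06, adjusted p = 0.650 by edgeR). Suclg2 went the other way, at -0.24 (SE 0.13), and the other TCA cycle genes lay between -0.0017 and 0.12. In both the wild-type and the mutant library of pair 2 most genes of the cycle were high: Hq-mut 2 was the highest of the 8 libraries for 9 of 11 TCA cycle genes, 12 of 17 glycolysis genes and 3 of 9 pyruvate entry genes. That is 64.9% of members, against 29.9% of all genes. Among wild types, Hq-WT 2 was highest for 25 of 37 members, against 37.1% of all genes.

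Isozyme shares put the members of a family on one scale: each gene's CPM per kilobase as a percent of its family's sum, compared between the 4 libraries of each group by an exact permutation test over 70 arrangements, two-sided. Over 12 shares in both lines, 24 tests were made, and the smallest p that 4 against 4 libraries allow is 0.0286. With adjustment over the 24 tests none passed, the lowest adjusted p being 0.514, and 1 had an exact p under 0.05. That was the share of Pdk3 in the Pdk family, 16.8, 18.9, 15.6 and 16.2% in Aifm1-KI against 15.4, 14.7, 15.05 and 15.1% in Aifm1-WT (exact permutation p = 0.0286). All 4 mutant libraries lay above all 4 wild types, Aifm1-KI 1 and 3 among them. Pdk4 made up 6.64% ± 0.99 (SD, n = 4) of the family in Aifm1-KI and 8.32% ± 1.21 (SD, n = 4) in Aifm1-WT (exact permutation p = 0.0571).

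The share of Ldhb among lactate dehydrogenases was 69.1, 67.2, 73.9 and 67.3% in Aifm1-KI and 72.7, 71.9, 75.0 and 74.1% in Aifm1-WT. Only Aifm1-KI 3 reached the wild-type range, and the exact permutation p was 0.0857. Hk2 made up 1.79% ± 0.33 (SD, n = 4) of hexokinase in Aifm1-KI and 1.38% ± 0.18 (SD, n = 4) in Aifm1-WT (exact permutation p = 0.0857). In the Hq line none of the 12 shares had an exact p under 0.2 when the pairs were not used. Ldhb made up 72.8% ± 3.82 (SD, n = 4) in Hq-mut and 73.2% ± 3.15 (SD, n = 4) in Hq-WT (exact permutation p = 0.886). The Ldhb shares of both lines do not give the make-up of lactate dehydrogenase. Of the Ldhb stretches 26.3%, and of the Ldha stretches 15.9%, are shared with other genes. Per kilobase of stretches found in no other gene, Ldhb stood at 202 CPM and Ldha at 101 over all libraries. The neuronal enolase Eno2 held 93.2 to 93.9% of enolase in all group means, by CPM per kilobase of annotated exon. This share does not give the make-up of enolase, since 71.9% of Eno1 stretches but 0.219% of Eno2 stretches are shared with other genes. Per kilobase of stretches found in no other gene, Eno2 stood at 306 CPM and Eno1 at 120 over all libraries. Within pairs, the Pfkp share of phosphofructokinase was lower in all 4 Hq-mut libraries, by -1.43, -2.35, -0.69 and -1.46 percentage points, and the Pfkl share higher in all 4, by 1.46, 0.89, 0.27 and 0.40 points. Both had an exact p of 0.125 by sign flips within pairs, two-sided, which is the smallest that 4 pairs allow, and no other share moved one way in every pair. Adjusted over the 12 shares it was 0.6.

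**Figure D5:**
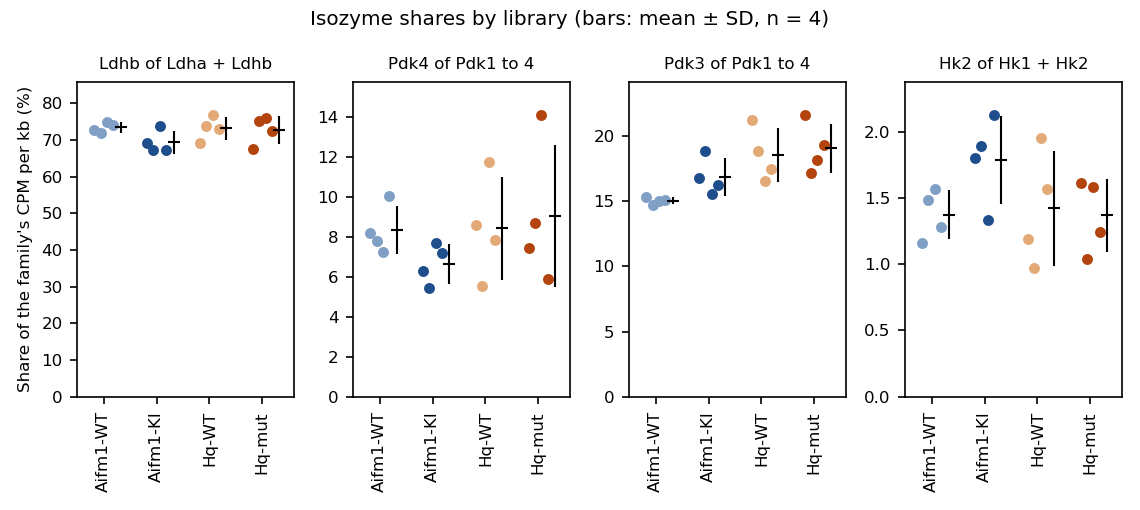
Each point is 1 library, and bars give mean ± SD of the 4 libraries of a group, for the share of an isozyme in its family's summed CPM per kilobase. Pdk3 shares of the Aifm1-KI libraries, 15.6 to 18.9%, all lie above those of Aifm1-WT, 14.7 to 15.4%, and the other groups compared overlap.

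The difference between the effects of the alleles was tested directly over all 16 libraries. Of the members 0 were called, against 2 of 19129 genes (0.0105%), and 6 had an unadjusted p under 0.05, as did 1994 genes (10.4%). The difference, Hq effect minus Aifm1-KI effect, was above zero for 28 of 37 members and for 48.7% of all genes. Gapdh had -0.50 (SE 0.16, adjusted p = 0.450 by edgeR), and Pgk1 0.62 (SE 0.21, adjusted p = 0.450 by edgeR), below wild type in Aifm1-KI and above it in Hq-mut. Without Hq pair 2 the Pgk1 difference was 0.48. The values for Pdk4 and Pcx were 0.52 (SE 0.25) and 0.28 (SE 0.13), and for Idh3a and Mdh2 0.20 (SE 0.09) and 0.19 (SE 0.10), with edgeR adjusted p of 0.477 or more. Without Hq pair 2 the differences were 0.31 for Pdk4, 0.18 for Pcx, 0.23 for Idh3a, 0.15 for Mdh2 and -0.62 for Gapdh.

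The wild types of the lines were also set against each other; stock, colony and handling cannot be told apart in this comparison, which shares its libraries with those above. Of 18106 genes 101 (0.558%) were called and 0 of them were members. An unadjusted p under 0.05 was found for 3 members and 2304 genes (12.7%), and 26 of 37 members were above zero in Hq-WT, against 51.0% of all genes. No member had groups that do not overlap, which 7.28% of genes had. All 11 TCA cycle genes were above zero, from 0.03 to 0.26, with a median of 0.11, and for 9 of the 11 the highest of the 4 Hq-WT libraries was Hq-WT 2, the library with the most choroid plexus markers. Without Hq-WT 2 the TCA cycle median was 0.05, with 8 of 11 genes above zero and Idh3a, Idh3b and Idh3g at -0.05, -0.04 and -0.05, and 22 of 37 members were above zero. The glycolysis median was 0.04 with Hq-WT 2 and -0.04 without it.

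Pdk3 was at 28.6, 25.8, 20.9 and 21.9 CPM in Hq-WT and 19.01 to 22.1 CPM in Aifm1-WT, with a log2 fold change of 0.25 (SE 0.10, adjusted p = 0.346 by edgeR). Pdk2 was at 82.4 to 91.8 CPM against 90.2 to 101, a log2 fold change of -0.15 (SE 0.07, adjusted p = 0.365 by edgeR). Sucla2, the ATP-forming succinyl-CoA ligase subunit, was at 151, 172, 129 and 140 CPM in Hq-WT against 139, 119, 118 and 137 in Aifm1-WT, with a log2 fold change of 0.20 (SE 0.09, adjusted p = 0.402 by edgeR), or 0.14 without Hq-WT 2. These groups overlap through Hq-WT 3. Suclg2 was at 7.67, 8.22, 9.71 and 10.4 CPM against 9.08, 6.70, 6.83 and 7.25, with a log2 fold change of 0.26 (SE 0.15). Pgam1, phosphoglycerate mutase, was at 19.7, 23.6, 17.8 and 19.8 CPM against 19.7, 16.1, 16.1 and 18.3, with a log2 fold change of 0.20 (SE 0.10), and Eno1 at 68.1, 61.8, 51.5 and 64.1 CPM against 65.8, 69.5, 59.7 and 68.2, with -0.11 (SE 0.09). All of these overlap between the wild types.

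Another 54 genes of these pathways, among them other isozymes, pyruvate carriers, aconitases, succinate dehydrogenase and the pentose phosphate enzymes, gave no call in any of the 4 comparisons; 46 or 47 were tested in each. In Aifm1-KI 20 of 47 lay above zero and 27 below, and the smallest p belonged to Pgam2, the muscle phosphoglycerate mutase, with 0.88 (SE 0.21, adjusted p = 0.368 by edgeR). It was at 2.48, 4.29, 3.02 and 4.75 CPM in Aifm1-KI against 1.82 to 2.24 CPM in Aifm1-WT, so that the groups did not overlap. Groups that do not overlap were found for 4.87% of all genes tested, in either direction, and Pgam2 was picked by its p from 47. Without Aifm1-KI 2 and 4 its log2 fold change was 0.44 (SE 0.21). Pgm2, a phosphoglucomutase, had -0.47 (SE 0.16).

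In Hq-mut 24 of 46 such genes lay above zero and 22 below, with a median of 0.01. Acly, the cytosolic enzyme that splits citrate into acetyl-CoA, was at 198, 170, 188 and 182 CPM in Hq-mut and at 166, 149, 152 and 159 CPM in Hq-WT. All mutant libraries lay above all wild types, with a log2 fold change of 0.21 (SE 0.06, adjusted p = 0.547 by edgeR). Of all genes tested in this line, 1.58% had groups that do not overlap, in either direction, and Acly was picked by its p from 46 genes. Mdh1, the cytosolic malate dehydrogenase, had 0.15 (SE 0.06), and Idh2, the NADP-dependent mitochondrial isocitrate dehydrogenase, -0.21 (SE 0.10). For the difference of effects Mdh1 had 0.28 (SE 0.10) and Pfkfb4, a maker and breaker of fructose 2,6-bisphosphate, -0.31 (SE 0.13). Between the wild types the mitochondrial Pck2 had -0.37 (SE 0.10) and the muscle enolase Eno3 -0.50 (SE 0.15).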

How the data were processed

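Per the labels' protocols and the design text, total RNA was made into libraries with a KAPA mRNA kit and sequenced as 51-base single reads, which the authors mapped to mm10 with STAR and turned into counts per gene with htseq-count. The submitters' processing notes give STAR 2.6. The deposited values are whole-number counts, not normalized, in 1 table of 16 columns. Not given in the sources used here are the annotation, the strand setting and the HTSeq version; reads that fit several places may be lost from genes with copies.

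Counts were fitted with edgeR 4.0.16 in R 4.3.3 (TMM factors, its default filter by group, quasi-likelihood test), over all genes that passed the filter, with calls at a Benjamini-Hochberg adjusted p under 0.05. The Hq line was fitted with replicate pairs; same-numbered Hq libraries had correlated deviations from the group means (0.41 to 0.53), those of the Aifm1 line had not (-0.03 to 0.10). That support for the pairing comes from the data, since the labels give shared numbers only. DESeq2 1.42.0 was an alternative. The fits were tested on simulated data. Standard errors are the fold change over the root of the F statistic. No pair among the 120 pairs of libraries agreed within sampling noise (chi-square of at least 3.12 per gene). Intervals cover the spread between libraries, and total counts limit how precisely low genes are known.

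Names and positions are from GENCODE M21 on GRCm38. With no genome sequence, copies were looked up in 141767 annotated transcripts in place of the whole genome that had been planned. Promoters are RefSeq's. The members and lists were chosen with earlier results of these data known. Values in every library are given for called members, members whose groups do not overlap, the 2 smallest p of each role (for the difference of effects, Pcx, Idh3a and Mdh2 in the Hq line alone), and Gapdh, Ldha, Ldhb and Pdk1 to Pdk4; of other pathway genes, those with the 3 smallest p are named, except 1 gene that is not reported here. Eno1, Pgk1 and Suclg2 in Hq-mut, and other members named by value alone, were chosen after their values were seen.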

Additional observations from a re-analysis of the deposited data

Results flagged for a closer look

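In groups of 4, a library was marked where its gap to the nearest other took up too much of the group's range by Dixon's test at its 95% critical value; over 148 groups this marked 14, and chance alone marks about 1 in 20 groups. Of the 14, 8 were high values of Hq-mut 2. There Ldhb was at 320.79 CPM (nearest other 192.0), Pdk2 at 114.85 (85.1), the citrate synthase gene Cs at 271.45 (229), Idh3b at 275.46 (197), Idh3g at 147.94 (92.4), Suclg1 at 127.16 (82.1), Fh1 (fumarase) at 99.991 (67.1) and Mdh2 at 389.28 (246). In Hq-WT 2, which shares its number, Idh3b at 250.0 CPM (185), Idh3g at 127.39 (94.5) and Fh1 at 91.842 (63.2) were marked as high.

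In the Aifm1 line, Idh3b at 194.37 CPM (nearest other 171) and Ogdh, of the oxoglutarate dehydrogenase complex, at 264.1 (238) were high in Aifm1-KI 3, and Dld at 104.21 (114) was low in Aifm1-KI 4.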

How the results depend on the processing

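No member was called in any comparison under any alternative run. Counts of all genes called moved: with DESeq2 they were 82 (Aifm1-KI), 33 (Hq-mut), 19 (difference of effects) and 421 (wild types), against 0, 3, 2 and 101, and with no filter on low counts 368 (Hq-mut) and 560 (wild types). Leaving out 1 library, Aifm1-KI gave 0 to 46 (46 without Aifm1-KI 3) and the wild types 32 (without Aifm1-WT 2) to 231 (without Hq-WT 3); leaving out 1 pair, Hq-mut gave 1 (without pair 1 or pair 3) to 4. Without a replicate block Hq-mut gave 3 calls, with 1 member at an unadjusted p under 0.05 in place of 5. The block in the Aifm1 line, where the labels do not say that numbers pair libraries, gave 0 calls. Median log2 fold changes of a role held within the spread of the libraries, except for pyruvate entry without a library or pair, from 0.038 to 0.110 for the difference of effects (0.110 without Hq pair 2) and from -0.043 to 0.021 for the wild types (0.021 without Hq-WT 2). Within that spread, the Aifm1-KI median of the TCA cycle moved from -0.039 to -0.087 without Aifm1-KI 3 and to -0.0032 without Aifm1-WT 4. That of glycolysis, -0.013 with all libraries, became -0.046 when Aifm1-KI 3 was left out, 0.0079 when Aifm1-KI 2 was, and 0.019 when Aifm1-WT 4 was. Between the wild types it moved from 0.044 to -0.040 without Hq-WT 2. Sign flips within Hq pairs, added after seeing the data, passed 0 shares, as 4 pairs cannot. Signs changed for members near zero. In Aifm1-KI, Gapdh was -0.066 with pseudogene counts added and -0.053 to 0.066 over libraries left out, Ldha -0.0074 to 0.090, and Pdk1 -0.052 to 0.025, with 0.00048 under the replicate block and 0.025 without Aifm1-KI 2 and 4. In Hq-mut, leaving out 1 pair gave -0.094 to 0.11 for Pdk1, -0.012 to 0.092 for Pdk2 and -0.069 to 0.31 for Pdk4. The causes were not tested. Depth limits Hk2, Gapdh, Pgk1 and Suclg2 most, which have the fewest reads.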
